A study of Mus musculus with 12 samples.

Results

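Mouse macrophages grown from bone marrow monocytes with M-CSF were compared after exposure to the neuropeptide CGRP or to saline, across every gene with enough counts to test. The comparison uses 6 of the 12 libraries of the study, 3 with CGRP and 3 with saline (PBS), and the other 6 libraries are bone marrow neutrophils given the same treatments. Monocytes were isolated from the bone marrow of young adult C57BL/6 J mice and kept for 3 days in DMEM/F12 with fetal bovine serum, antibiotics and M-CSF at 10 ng/ml, on which monocytes develop into macrophages. Their medium was then replaced with medium holding 1 nM CGRP, or saline, for 4 h. The sample labels call the cells monocytes/macrophages. Neither the labels nor the methods say whether the 3 libraries of a group came from separate mice or cultures, so p-values measure the spread between these libraries, which may be technical. Of the 52636 genes listed, 9393 had enough counts to be tested. Total counts were 3379068, 3477069 and 2536415 in the saline libraries and 3259073, 2692858 and 2002559 in the CGRP libraries, so that 3 counts, taken as the limit of detection, correspond to between 0.863 and 1.5 CPM, a count scaled to library size (counting error only). Counts are given for the libraries in this order throughout, and positions are those of GENCODE vM21 on GRCm38.

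CGRP is released by sensory nerve endings. Its receptor is formed by CALCRL, a G protein-coupled receptor, and RAMP1, a small partner protein that gives CALCRL its preference for CGRP. The receptor acts through the Gs protein, which stimulates the formation of cAMP. The kinase PKA, switched on by cAMP, phosphorylates the transcription factor CREB, which binds the cAMP response element in promoters. Among the genes known to be induced in this way are those of the NR4A nuclear receptors, the repressor ICER, made from *Crem*, and phosphodiesterases, which break cAMP down. In macrophages, cAMP is known to restrain the production of TNF and several chemokines, while M-CSF drives growth and division through MYC and D-type cyclins.

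The libraries carried the markers of macrophages. *Cd68*, a lysosomal protein of macrophages, had 10871, 9989 and 8748 counts without CGRP and 9371, 8503 and 6722 with it, and *Csf1r*, the M-CSF receptor, had 2654, 2164 and 2538 counts without CGRP and 2575, 3081 and 2250 with it. *Adgre1*, which encodes F4/80, had 1561, 1266 and 1393 counts without CGRP and 1437, 1539 and 1202 with it. Of 20 genes that define macrophages all were tested and only *Apoe* was called, a call lost without saline library 1, CGRP library 2 or CGRP library 3 (18 log2 fold changes were above 0, median 0.18). Markers of other cells were partly present. The 16 markers of T and NK cells, of which 6 had no counts (among them *Cd3e*, *Cd3g* and *Trbc2*), summed to 153, 138 and 198 CPM with saline and 176, 215 and 227 CPM with CGRP, most of it *Il7r*. *Cd3d* and *Trac* had at most 3 counts in a library. *Il7r* and *Cd4* could be tested, and *Cd4* was higher (7, 3 and 10 counts without CGRP and 20, 14 and 15 with it, adjusted p = 0.0394 in limma-voom), a call that held only without saline library 3. The 11 markers of B cells, of which 5 had no counts (among them *Cd79a* and *Ms4a1*), summed to 147, 161 and 166 CPM with saline and 152, 131 and 144 CPM with CGRP. Most of this was *Ighm* (306, 296 and 316 counts without CGRP and 221, 169 and 157 with it), with *Cd79b* (111, 109 and 87 counts without CGRP and 119, 108 and 74 with it) and *Igkc* (77, 100 and 46 counts without CGRP and 116, 57 and 45 with it) next, and none of the 4 B cell markers tested was called. Of the dendritic cell markers, *Xcr1* had no counts and *Clec9a*, *Flt3* and *Zbtb46* had at most 2 in a library. Traces of granulocyte genes were present. The 17 neutrophil markers, all with a count, summed to 404, 478 and 364 CPM with saline and 536, 510 and 505 CPM with CGRP. *S100a8* had the most counts among them, none of the 10 that could be tested was called, and *Ly6g*, a defining marker, had at most 3 counts in a library. In bulk RNA, fewer cells of a type and less RNA per cell cannot be told apart.

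In a principal component analysis the first component, with 46.7% of the variance, separated the CGRP libraries from the saline libraries. The second, with 22.9%, had saline library 3 at one end and CGRP library 1 at the other. The nuclear RNAs *Malat1* and *Neat1* summed to 11751, 13680 and 6668 CPM in the saline libraries and to 14475, 5066 and 4584 CPM in the CGRP libraries, so CGRP library 1 lay above all saline libraries and saline library 3 next to the other CGRP libraries. The part of this difference in the results below was not tested. Without both libraries, an alternative added after the data were seen, 1600 genes were called, among them 631 of those called with all 6.

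With CGRP, 698 genes (7.43% of those tested) were differentially expressed (DEGs) (limma-voom, adjusted p below 0.05), 325 of them higher (3.46%) and 373 lower (3.97%). These shares are the background against which the counts of each gene group below are given. The median change of a DEG was 2.08-fold upward or 2.06-fold downward. Changes over 4-fold were found for 42 raised and 32 lowered genes. For 691 DEGs the CGRP libraries lay all on one side of the saline libraries, as they did for 24.1% of all genes tested. Over all genes tested the median log2 fold change, here always CGRP against saline, was 0.005. Removing single libraries moved the total: it was 347 without saline library 1, 348 without CGRP library 2 and 439 without CGRP library 3, and none of the 698 changed sign in these fits.

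**Figure D1:**
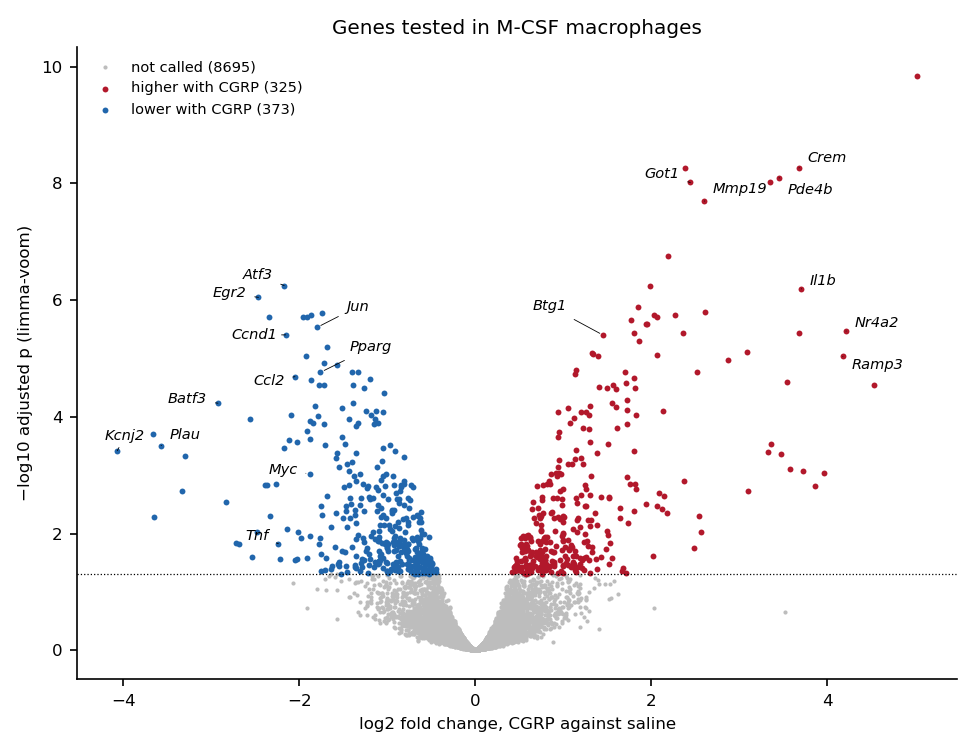
Each point is 1 of the 9393 genes tested in M-CSF macrophages, by its log2 fold change (CGRP against saline, x axis) and the −log10 of its adjusted p from limma-voom (y axis), with the 325 raised genes in red, the 373 lowered genes in blue and a dotted line at 0.05. The raised side reaches higher on both axes, with *Crem* and *Pde4b* among the highest labelled points and *Thbs1* as the unlabelled highest point.

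Of the genes of the CGRP receptor, *Calcrl* fell and *Ramp1* was not called. *Calcrl* (chromosome 2, 84330626 to 84425411) had 68, 73 and 35 counts without CGRP and 17, 16 and 8 with it (log2 fold change −1.75, SE 0.33, adjusted p = 0.00335 in limma-voom), without overlap between the groups. *Ramp1* (chromosome 1, 91179822 to 91225196) had 368, 444 and 304 counts without CGRP and 394, 286 and 190 with it, with overlapping groups and an adjusted p of 0.808 (log2 fold change −0.09, SE 0.15). *Ramp3* (chromosome 11, 6658521 to 6677475), whose product turns CALCRL towards adrenomedullin, was barely detected without CGRP: it had 5, 6 and 2 counts without CGRP and 85, 68 and 50 with it (log2 fold change 4.18, SE 0.43, adjusted p = 9.19e-06). Both *Calcrl* and *Ramp3* kept their call whichever of the 6 libraries was left out. No counts were assigned to *Ramp2*, but the 3′ end of its transcript is shared in full with *Vps25*, so its level is not known. Among the other genes of the pathway, from the Gs protein to CREB and its coactivators, *Crtc3*, a CREB coactivator, rose (40, 27 and 59 counts without CGRP and 80, 151 and 86 with it, log2 fold change 1.64, SE 0.34, adjusted p = 0.00543). In all, 27 of the 38 genes of this machinery were tested, of which *Ramp3* and *Crtc3* were higher and *Calcrl* was lower, and 4 were higher without CGRP library 1. *Pkib*, outside that list, encodes an inhibitor of PKA. It fell and had 636, 717 and 452 counts without CGRP and 180, 136 and 88 with it (log2 fold change −1.87, SE 0.16, adjusted p = 1.76e-06).

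Genes known to be induced by cAMP formed the group with the largest share of raised members among those examined. Of 24 listed, 16 were tested and 10 rose, with a median log2 fold change of 0.97. The gene lists were chosen with earlier results of these data known, so this rank is not independent of the values. *Crem* had 50, 49 and 34 counts without CGRP and 607, 447 and 358 with it (log2 fold change 3.68, SE 0.19, adjusted p = 5.40e-09). *Pde4b* (chromosome 4, 102087543 to 102607259), the gene of a cAMP phosphodiesterase, had 43, 39 and 35 counts without CGRP and 443, 361 and 262 with it (log2 fold change 3.45, SE 0.19, adjusted p = 7.99e-09). In both, the lowest CGRP library was several times above the highest saline library, and the same was true of *Nr4a2* (chromosome 2, 57106830 to 57124003), a nuclear receptor of the NR4A family, which had 4, 7 and 11 counts without CGRP and 131, 117 and 75 with it (log2 fold change 4.22, SE 0.39, adjusted p = 3.38e-06). *Nfil3*, a basic leucine zipper repressor, rose from 21 ± 2.86 to 86.1 ± 4.3 CPM (SD, n = 3, TMM-scaled CPM as in all such values, log2 fold change 2.03, adjusted p = 1.76e-06). The other members that rose were *Pde3b*, *Fosl2*, *Junb*, *Nr4a1*, *Rgs2* and *Fos*, with log2 fold changes from 0.77 to 3.09, and *Nr4a1* lost its call without saline library 1. The only member that fell was *Atf3* (chromosome 1, 191170296 to 191218039), a stress-induced transcription factor, with 834, 958 and 626 counts without CGRP and 207, 150 and 88 with it (log2 fold change −2.17, SE 0.17, adjusted p = 5.61e-07). Between 9 and 12 members rose and 1 fell under each alternative tried, those that left out a library included.

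The cAMP response element, TGACGTCA, which reads alike on both strands, was looked for in the promoters of the DEGs (250 bases before to 50 after the start, RefSeq, GRCm38.p6). It lay in 7 of the 240 raised genes with a promoter sequence (2.92%), in 13 of 281 lowered genes (4.63%) and in 3.85% of all 7373 tested genes with one. Its shorter form TGACG, on either strand and also found inside the full element, lay in 37.9% of raised, 34.9% of lowered and 37.9% of all genes. Shares for TGANTCA, the AP-1 motif, were 7.50%, 9.61% and 5.90%, and for AAAGGTCA, the NR4A motif, 1.67%, 0.356% and 1.11%. For CCAAT they were 46.7%, 51.2% and 43.2%. The raised genes thus held the cAMP motifs about as often as all tested genes, and a match describes letters in this window and no binding. The promoters of 3 raised genes are printed to show where these letters lie. *Btg2* and *Trp53inp2* have the largest changes among raised genes with the full element after the predicted gene *Gm16062*, and *Nr4a2* was chosen for its rise, after its values were seen, as a promoter with several copies of the shorter form. Capitals mark the full element in *Btg2* (chr1:134079106-134079405, minus strand) and *Trp53inp2* (chr2:155381606-155381905, plus strand) and TGACG, or its reverse complement, in *Nr4a2* (chr2:57123954-57124253, minus strand):
Btg2: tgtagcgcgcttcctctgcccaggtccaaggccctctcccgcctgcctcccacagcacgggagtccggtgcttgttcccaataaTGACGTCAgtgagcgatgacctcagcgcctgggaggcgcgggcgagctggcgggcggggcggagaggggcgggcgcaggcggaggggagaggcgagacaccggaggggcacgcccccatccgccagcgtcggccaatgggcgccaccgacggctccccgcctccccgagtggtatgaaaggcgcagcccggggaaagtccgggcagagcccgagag
Trp53inp2: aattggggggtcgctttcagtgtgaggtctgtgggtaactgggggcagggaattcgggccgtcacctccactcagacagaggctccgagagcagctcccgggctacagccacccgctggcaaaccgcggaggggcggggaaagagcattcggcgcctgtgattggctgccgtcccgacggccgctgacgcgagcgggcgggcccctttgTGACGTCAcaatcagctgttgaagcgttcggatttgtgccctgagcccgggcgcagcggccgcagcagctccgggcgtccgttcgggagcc
Nr4a2: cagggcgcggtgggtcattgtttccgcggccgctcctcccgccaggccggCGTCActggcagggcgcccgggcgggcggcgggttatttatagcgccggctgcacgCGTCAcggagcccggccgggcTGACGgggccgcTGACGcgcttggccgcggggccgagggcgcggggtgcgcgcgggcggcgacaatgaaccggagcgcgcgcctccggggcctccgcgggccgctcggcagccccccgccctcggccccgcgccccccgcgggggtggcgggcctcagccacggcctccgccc
The element begins 166 bases before the start of *Btg2* and 41 before that of *Trp53inp2*. The copy of the shorter form nearest to the start of *Nr4a2* begins 111 bases before it. *Trp53inp2*, an autophagy gene, had 134, 119 and 114 counts without CGRP and 247, 275 and 213 with it (log2 fold change 1.29, SE 0.17, adjusted p = 9.19e-05), and *Btg2* is described with the growth genes.

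Other genes near the top of the raised side belonged to several processes. *Il1b* (chromosome 2, 129364570 to 129371139), the cytokine interleukin-1β, had 12, 14 and 15 counts without CGRP and 198, 154 and 100 with it (log2 fold change 3.71, SE 0.29, adjusted p = 6.41e-07). *Cytip* (chromosome 2, 58129137 to 58195532), which encodes a regulator of leukocyte adhesion, had 139, 132 and 79 counts without CGRP and 1388, 1027 and 588 with it (log2 fold change 3.35, SE 0.19, adjusted p = 9.53e-09). *Got1* (chromosome 19, 43499752 to 43524605), the cytosolic aspartate aminotransferase, had 177, 199 and 145 counts without CGRP and 904, 800 and 608 with it (log2 fold change 2.45, SE 0.14, adjusted p = 9.61e-09), and *Mmp19* (chromosome 10, 128790910 to 128800824), a matrix metalloproteinase, had 141, 173 and 120 counts without CGRP and 757, 803 and 582 with it (log2 fold change 2.61, SE 0.15, adjusted p = 2.00e-08). In these 4 genes the groups lay far apart compared with the spread within them. *Mmp19* overlaps *Tmem198b*, a gene of the other strand with 265 counts in all against 2576 for *Mmp19*, which rose as well (1.23, adjusted p = 0.014). Whether strand was used in counting is not given in the sources used here. *B3gnt5*, a glycolipid glycosyltransferase, had 17, 9 and 6 counts without CGRP and 152, 102 and 79 with it (log2 fold change 3.68, SE 0.34, adjusted p = 3.59e-06). *Stat4*, a transcription factor of the JAK-STAT pathway (0, 2 and 4 counts without CGRP and 28, 29 and 9 with it), *Gpr171*, a G protein-coupled receptor (0, 2 and 2 counts without CGRP and 22, 12 and 13 with it), and *Rnf125*, a ubiquitin ligase (4, 0 and 0 counts without CGRP and 13, 13 and 13 with it), were close to the limit of detection with saline, and their fitted log2 fold changes (3.87, 3.72 and 3.96) rest on few counts. All genes of this paragraph that were named as raised, other than *Tmem198b*, for which this was not examined, were called in each fit that left out a library.

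Genes of the immediate early response and of MAPK feedback split. Of 16 tested, 3 rose and 6 fell (median log2 fold change −0.42). *Egr2* (chromosome 10, 67535475 to 67542188), a zinc finger transcription factor, had 288, 263 and 229 counts without CGRP and 54, 36 and 26 with it (log2 fold change −2.46, SE 0.20, adjusted p = 8.94e-07), and *Jun* (chromosome 4, 95049034 to 95052222), a subunit of AP-1, had 678, 557 and 657 counts without CGRP and 200, 144 and 105 with it (log2 fold change −1.80, SE 0.16, adjusted p = 2.92e-06). In both, each CGRP library lay below all saline libraries. *Spred1*, an inhibitor of RAS signalling, fell from 24.5 ± 4.22 to 9.14 ± 3.14 CPM (log2 fold change −1.47, SE 0.29, adjusted p = 0.00401), and *Dusp7*, an ERK phosphatase, had 42, 32 and 54 counts without CGRP and 8, 20 and 9 with it (−1.54, adjusted p = 0.0301). *Dusp5*, another ERK phosphatase, went the other way with 9, 4 and 14 counts without CGRP and 91, 92 and 54 with it (log2 fold change 3.54, SE 0.40, adjusted p = 2.57e-05), as did *Ier3* (1.39, adjusted p = 4.17e-04) and *Ier2* (0.73, adjusted p = 0.0224). AP-1 subunits were thus on both sides, since *Jun* fell while *Junb*, *Fos* and *Fosl2* rose. *Dusp7* and *Ier2* lost the call in most fits that left out a library, and the number that fell was 3 without saline library 1, CGRP library 2 or CGRP library 3.

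The steepest falls included ion channel genes and the purine receptor gene *P2ry1*. Those of *Kcnj2*, *Kcne3* and *P2ry1* reached counts near the limit of detection, so the sizes of their fitted changes are imprecise. *Kcnj2* (chromosome 11, 111066164 to 111076821), an inward rectifier potassium channel, had 70, 57 and 51 counts without CGRP and 5, 8 and 0 with it (log2 fold change −4.07, SE 0.60, adjusted p = 3.80e-04). *Kcne3* (chromosome 7, 100176502 to 100184869), a potassium channel accessory subunit, had 48, 44 and 21 counts without CGRP and 2, 0 and 10 with it (log2 fold change −3.65, SE 0.74, adjusted p = 0.00517). *Kcnn4* (chromosome 7, 24370263 to 24386690), the calcium-activated potassium channel KCa3.1, had 561, 450 and 402 counts without CGRP and 101, 118 and 86 with it (log2 fold change −1.92, SE 0.17, adjusted p = 1.97e-06), and *Kcnk13*, a two-pore potassium channel, had 203, 196 and 164 counts without CGRP and 107, 57 and 29 with it (log2 fold change −1.35, SE 0.23, adjusted p = 0.00123). These 4 potassium channel genes were the only members called among 22 ion channel genes tested, and all were lower in each fit that left out a library. *Kcne3* was not called by DESeq2 (adjusted p = 0.269), and without CGRP library 1 another ion channel gene rose. *P2ry1* (chromosome 3, 61002795 to 61008982), a receptor for ADP, had 48, 55 and 33 counts without CGRP and 3, 1 and 4 with it (log2 fold change −3.67, SE 0.51, adjusted p = 1.94e-04), while *Entpd1*, the ectoenzyme CD39 that removes phosphates from ATP and ADP, rose by 0.58 (adjusted p = 0.0152), a call lost without saline library 1, CGRP library 2 or CGRP library 3. The adenosine receptor gene *Adora2b* (0.78, adjusted p = 0.0419) held its call in 1 such fit of 6. Of 11 tested genes of purine receptors and ectoenzymes, 2 rose (18.2%) and 1 fell (9.09%), and none rose without saline library 1 or CGRP library 2.

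Other genes with large falls encode secreted, signalling and survival proteins. *Plau* (chromosome 14, 20836660 to 20843385), the urokinase plasminogen activator, had 61, 56 and 76 counts without CGRP and 4, 2 and 8 with it (log2 fold change −3.57, SE 0.52, adjusted p = 3.11e-04). *Bcl2l1* (chromosome 2, 152780668 to 152831728), the survival protein BCL-XL, had 293, 232 and 246 counts without CGRP and 52, 46 and 26 with it (log2 fold change −2.34, SE 0.20, adjusted p = 1.97e-06), and *Plk2* (chromosome 13, 110395046 to 110400844), a polo-like kinase, had 424, 399 and 295 counts without CGRP and 111, 72 and 53 with it (log2 fold change −1.96, SE 0.17, adjusted p = 1.97e-06). *Batf3* (chromosome 1, 191097847 to 191108945), a transcription factor known from dendritic cells, had 95, 95 and 65 counts without CGRP and 16, 8 and 4 with it (log2 fold change −2.92, SE 0.36, adjusted p = 5.82e-05), whereas the 12 dendritic cell markers, of which it is a member, summed to 128, 115 and 133 CPM with saline and 145, 163 and 171 CPM with CGRP, most of it *Tcf4*. *Efr3b* (33, 16 and 19 counts without CGRP and 4, 2 and 0 with it), which helps to hold a lipid kinase at the plasma membrane, and *Cdca7* (18, 25 and 12 counts without CGRP and 1, 1 and 1 with it), a cofactor of chromatin remodelling, fell to the limit of detection (log2 fold changes −3.33 and −3.30, resting on few counts). Each gene so far named in this paragraph, other than *Tcf4*, was lower in every fit that left out a library. *Ptchd1* and *Prag1*, with at most 22 counts in a library, also fell (−2.83 and −2.72) and lost the call without some libraries.

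**Figure D2:**
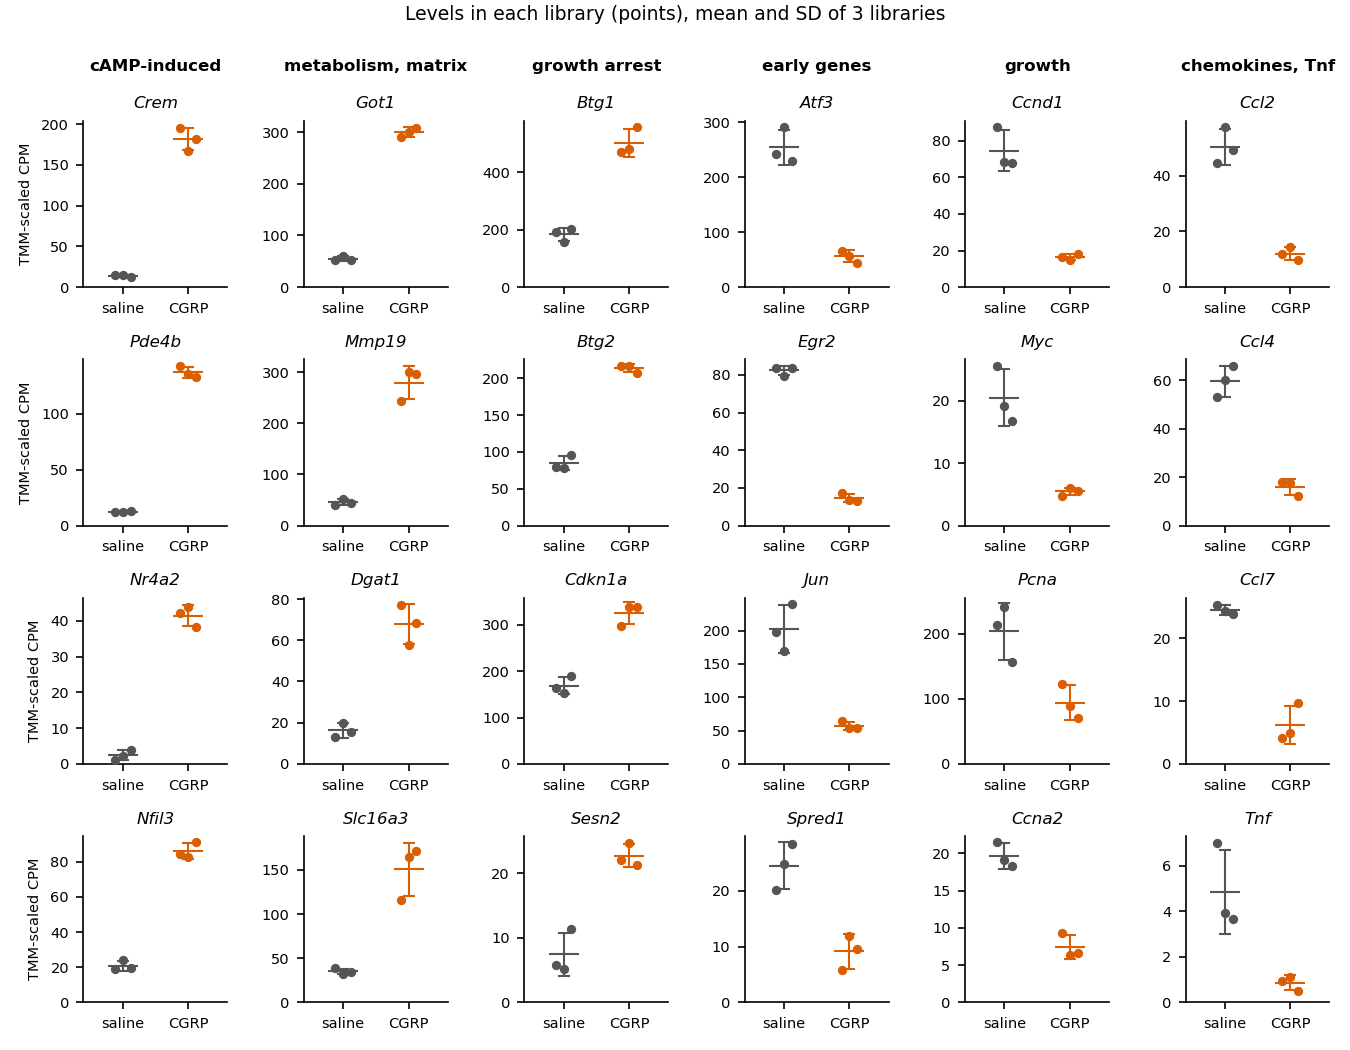
TMM-scaled CPM (y axis, from 0, scaled for each gene) of 24 genes in the 3 saline (grey) and 3 CGRP (orange) libraries, with points for libraries and bars for the mean ± SD. In each of these genes the saline and CGRP points do not overlap, with the CGRP points higher in the left 3 columns and lower in the right 3.

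Several genes of growth and division fell, while *Cdkn1a*, *Btg1* and *Btg2*, which halt division, rose. *Ccnd1* (chromosome 7, 144929931 to 144939925), cyclin D1, had 300, 226 and 185 counts without CGRP and 52, 40 and 36 with it (log2 fold change −2.15, SE 0.20, adjusted p = 3.93e-06). It overlaps *LTO1* on the opposite strand, with 225 counts against 839 and a log2 fold change of 0.12. *Cdk6*, a kinase partner of cyclin D1, fell from 49 ± 7.47 to 25.2 ± 2.3 CPM (adjusted p = 0.00451). *Cdkn1a* (chromosome 17, 29090976 to 29100727), the inhibitor p21 of cyclin-dependent kinases, had 563, 506 and 519 counts without CGRP and 926, 903 and 667 with it (log2 fold change 0.95, SE 0.13, adjusted p = 2.21e-04). The antiproliferative genes *Btg1* (chromosome 10, 96617006 to 96622809), with 662, 517 and 552 counts without CGRP and 1470, 1280 and 1102 with it (log2 fold change 1.46, SE 0.14, adjusted p = 4.00e-06), and *Btg2* (chromosome 1, 134075170 to 134079120), with 275, 259 and 262 counts without CGRP and 676, 576 and 408 with it (log2 fold change 1.34, SE 0.14, adjusted p = 8.28e-06), rose with it. The sestrins, stress proteins that restrain mTORC1, were split: *Sesn2* had 20, 17 and 31 counts without CGRP and 69, 66 and 42 with it (1.72, adjusted p = 0.00106), and *Sesn1* (chromosome 10, 41809935 to 41908424) had 670, 821 and 630 counts without CGRP and 222, 170 and 129 with it (−1.74, adjusted p = 1.64e-06). *Mxi1*, an antagonist of MYC counted here with the hypoxia genes, had 30, 25 and 30 counts without CGRP and 173, 146 and 109 with it (log2 fold change 2.61, SE 0.22, adjusted p = 1.58e-06). Each of these genes was called in every fit that left out a library. Of 26 genes of growth arrest, D cyclins and their kinases, 5 were higher and 4 were lower.

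Among genes of DNA replication and the G1/S transition, 8 of 35 tested fell (22.9%) and none rose by the test. Only 2 of the 35 log2 fold changes were above 0, and their median was −0.55. *Pcna*, the replication clamp, fell from 204 ± 43.1 to 94.2 ± 26.7 CPM (log2 fold change −1.11, SE 0.20, adjusted p = 0.00178). *Ccne2*, *Gins1* and *Rrm2* fell by 1.59, 1.76 and 1.05 on the log2 scale. Of the 43 genes of G2/M and mitosis tested, 8 fell (18.6%) and 1 rose, with 4 log2 fold changes above 0 and a median of −0.75. *Ccna2*, cyclin A2, had 74, 63 and 50 counts without CGRP and 29, 17 and 13 with it (log2 fold change −1.37, SE 0.27, adjusted p = 0.00391). It overlaps *Exosc9* on the opposite strand, which had 605 counts and a log2 fold change of −0.27. *Racgap1*, *Cdca2* and *Ccnb2* fell by 1.10, 1.91 and 1.10. *Cenpa*, the centromeric histone, was the member that rose (0.63, adjusted p = 0.023), and 10.2% of its 3′ sequence is shared with *Tcirg1*. Its call was lost without saline library 1, CGRP library 1 or CGRP library 2. *Pcna* and *Ccna2* were called in every fit that left out a library, and the other 6 lowered genes named here in 1 to 3 of the 6 fits. The counts of lowered members depended on single libraries: without saline library 1 they were 2 in G1/S and 1 in G2/M, and without CGRP library 2, or without CGRP library 3, 1 in each, while they were 15 and 25 without both libraries that stand apart. Markers of bone marrow progenitors moved with these groups, at a sum of 140, 120 and 152 counts without CGRP and 64, 56 and 42 with it. Most of this was *Sox4* (107, 88 and 129 counts without CGRP and 41, 38 and 19 with it), while *Kit* had at most 1 count and *Myb* had 0. The part of such cells in the result was not tested.

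*Myc* and several genes of ribosome assembly fell as well. *Myc* had 88, 63 and 46 counts without CGRP and 15, 16 and 11 with it (log2 fold change −1.88, SE 0.31, adjusted p = 9.48e-04), and *Gnl3*, the nucleolar GTPase nucleostemin, had 165, 173 and 102 counts without CGRP and 45, 45 and 36 with it (log2 fold change −1.48, SE 0.21, adjusted p = 2.90e-04). *Nop58*, a core protein of box C/D snoRNPs with 15.7% of its 3′ sequence found in another gene, fell from 47.4 ± 7.23 to 19.4 ± 4.11 CPM (adjusted p = 9.48e-04), and *Wdr43*, a factor of early ribosome assembly, from 71.4 ± 9.28 to 43.7 ± 2.56 CPM (adjusted p = 0.0125). The call of *Wdr43* was lost without saline library 1 or CGRP library 2. *Gnl3* overlaps *Pbrm1* on the opposite strand, which had 926 counts and a log2 fold change of 0.05. In all, 8 of the 35 members tested fell (22.9%) and none rose, with a median of −0.28. The count was 4 without saline library 1, 3 without CGRP library 2 and 5 without CGRP library 3. Of the genes for the proteins of the finished ribosome none of 82 was called, while 75 of them had a log2 fold change above 0 and their median was 0.12. That median depended on single libraries: it was 0.00 without saline library 3, 0.05 without CGRP library 1 and 0.24 without saline library 2, and −0.08, with 2 genes lowered, without both libraries that stand apart. Their summed level was 78576, 95763 and 66851 CPM with saline and 95755, 84478 and 78202 CPM with CGRP, with overlapping groups.

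**Figure D3:**
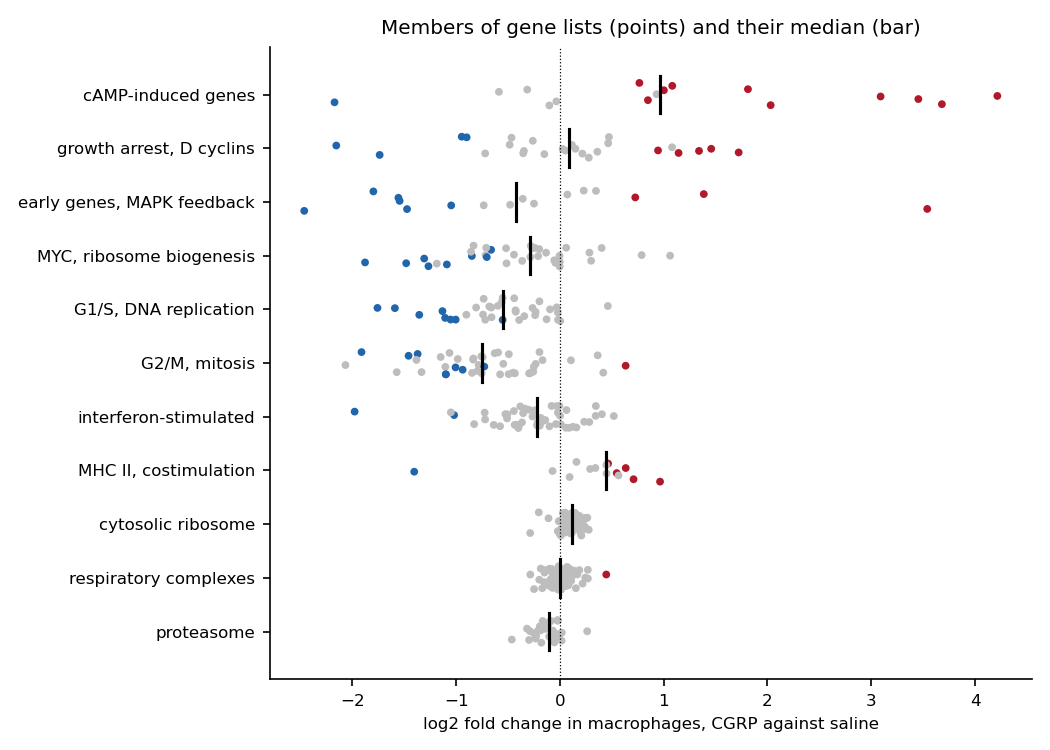
Log2 fold change in macrophages (x axis, CGRP against saline) of each tested member of 11 gene groups (rows), in red where called higher, blue where called lower and grey otherwise, with a bar at the median and a dotted line at the median of all genes tested. The medians run from −0.75 for G2/M to 0.97 for cAMP-induced genes, and the ribosomal protein, respiratory and proteasome genes lie close around 0.

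Among inflammatory genes, *Ccl2*, *Ccl3*, *Ccl4* and *Ccl7* fell while *Il1b* rose. Of 14 chemokine ligand genes tested, 4 fell and 4 rose. *Ccl2* had 153, 189 and 135 counts without CGRP and 37, 38 and 19 with it (log2 fold change −2.05, SE 0.23, adjusted p = 2.04e-05). *Ccl4* had 182, 199 and 180 counts without CGRP and 56, 47 and 24 with it (log2 fold change −1.87, SE 0.21, adjusted p = 2.30e-05), *Ccl7* had 87, 80 and 65 counts without CGRP and 13, 13 and 19 with it (log2 fold change −2.12, SE 0.30, adjusted p = 2.54e-04) and *Ccl3* fell from 41.9 ± 8.12 to 13.5 ± 3.6 CPM (adjusted p = 5.12e-04). CCL2 and CCL7 are ligands of CCR2 that attract monocytes. The 4 genes were lower in every fit that left out a library. The chemokine genes that rose did so by less: *Ccl9* (0.76), *Cxcl16* (0.66), *Ccl6* (0.70, lost without saline library 1) and *Ccl5* (0.60, adjusted p = 0.0473, with its call held in 1 such fit), and without saline library 1 the number that rose was 2. *Ccl6* had the most counts of the group, and the summed level of all chemokine ligand genes was higher with CGRP, at 8373, 7033 and 7226 CPM against 4749, 6104 and 4438 CPM with saline.

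Of 14 inflammatory cytokine genes and related genes tested, 3 rose and 4 fell, with *Ccl3*, *Ccl4* and *Ccl5* counted here as well. The number that fell was 2 without saline library 1, CGRP library 2 or CGRP library 3, and the number that rose was 1 without saline library 2. *Tnf* had 24, 13 and 10 counts without CGRP and 3, 3 and 1 with it (log2 fold change −2.24, SE 0.53, adjusted p = 0.0149), a fall on few counts that was lost without saline library 1 or any 1 of the CGRP libraries. *Casp1*, the protease that matures interleukin-1β, fell by 0.66 (adjusted p = 0.0397), a call held in 2 such fits. *Tnfsf14*, the cytokine LIGHT, had 9, 1 and 4 counts without CGRP and 25, 22 and 11 with it (2.57, adjusted p = 0.00949) and lost its call without saline library 2. *Osm*, oncostatin M, listed with the growth factors, had 13, 9 and 7 counts without CGRP and 39, 25 and 21 with it (log2 fold change 1.80, SE 0.35, adjusted p = 0.00407). *Il1r2*, the decoy receptor of interleukin-1, rose with *Il1b* and had 7, 9 and 9 counts without CGRP and 40, 34 and 17 with it (log2 fold change 2.09, SE 0.38, adjusted p = 0.00204). It was 1 of 2 raised members among 21 tested inhibitors of inflammation, of which 4 fell, among them *Ptpn6*, the phosphatase SHP-1, from 248 ± 18.6 to 119 ± 9.86 CPM (adjusted p = 8.37e-05), and *Dok2*, an adaptor that dampens RAS signalling, from 194 ± 13.9 to 87.9 ± 15.6 CPM (adjusted p = 1.10e-04). The raised inhibitors numbered 1 without saline library 1 or CGRP library 2 and 4 without saline library 3. The neutrophil markers given above moved in the same direction as *Il1b* and *Il1r2*, and their part in these changes was not tested.

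Innate sensors moved in both directions. The Toll-like receptor gene *Tlr13* and the related *Cd180* fell, with 195, 178 and 178 counts without CGRP and 59, 40 and 38 with it for *Cd180* (log2 fold change −1.72, SE 0.20, adjusted p = 2.82e-05) and 425, 350 and 368 counts without CGRP and 140, 144 and 109 with it for *Tlr13* (log2 fold change −1.24, SE 0.16, adjusted p = 7.99e-05). *Tlr1* (−1.51, 6.38% of its 3′ sequence shared with *Tlr6*) fell as well, and *Aim2*, a sensor of cytosolic DNA, by 1.21 (a call held in 2 fits when each library was left out in turn). The C-type lectins *Clec4e*, which encodes Mincle, and *Clec4n*, which encodes Dectin-2, rose by 1.29 (adjusted p = 1.59e-04) and 0.91 (adjusted p = 9.20e-04), together with *Cd14*. These were 3 raised and 4 lowered genes of 27 tested, with 5 raised without saline library 2 or CGRP library 1. Interferon-stimulated genes were mostly not called: 2 of 48 fell and none rose, with 13 log2 fold changes above 0 and a median of −0.22. The 2 were *Ifi207* (−1.02, adjusted p = 9.48e-04) and *Ifit3* (−1.98), which shares 24.0% of its 3′ sequence with a related gene, *Ifit3b*. The call of *Ifit3* was lost without saline library 1, CGRP library 2 or CGRP library 3. Without single libraries the number of lowered members ran from 1 (the same 3 cases) to 5 (without saline library 3 or CGRP library 1), and it was 5 with the replicate number as a block.

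Some genes of MHC class II presentation and some Fc receptor genes were modestly higher. Of 14 genes of class II antigen presentation and costimulation tested, 5 rose (35.7%) and 1 fell, with a median log2 fold change of 0.45. *H2-Eb1* had 2135, 2150 and 2009 counts without CGRP and 2580, 3018 and 2346 with it (log2 fold change 0.63, SE 0.15, adjusted p = 0.0133). *H2-Aa* rose by 0.55, *Cd86*, a costimulatory ligand, by 0.71, and *Cd274*, which encodes PD-L1, by 0.97, while *Cd40*, a costimulatory receptor, fell by 1.40. *Ctss*, the most abundant member, was not called (0.29, adjusted p = 0.179 in limma-voom), nor was *Cd74* (0.45, adjusted p = 0.0788). The calls of *H2-Eb1* and *H2-Aa* were lost without saline library 1, CGRP library 2 or CGRP library 3. The calls of both *Cd274* and *Cd40* were lost without saline library 1, saline library 2, CGRP library 2 or CGRP library 3. No member rose by the test without saline library 1, and 1 did without CGRP library 2 or CGRP library 3. The sum of the dendritic cell markers given above, most of it *Tcf4* (243, 189 and 201 counts without CGRP and 335, 295 and 224 with it), was higher in each CGRP library than in all saline libraries, while *Batf3* fell, *Fscn1* was not called (45, 38 and 52 counts without CGRP and 32, 54 and 42 with it, adjusted p = 0.804) and the defining markers were at or near 0. The part of such cells in these changes was not tested. None of 16 genes of MHC class I presentation was called (median 0.11), though 1 rose without saline library 3 and 2 without CGRP library 1. Of 20 Fc receptor and complement genes tested, 4 rose and none fell. *Fcgr2b*, the inhibitory Fc receptor, had 469, 459 and 409 counts without CGRP and 929, 847 and 632 with it (log2 fold change 1.14, SE 0.12, adjusted p = 1.87e-05) and was higher in every fit that left out a library. *Cfp*, *Fcgr4* and *Fcgr3* rose by 0.53, 0.57 and 0.57, and only 1 of the 4 genes rose by the test without saline library 1 or without CGRP library 2.

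Genes of lipid handling moved in both directions. *Dgat1*, the enzyme of the last step of triglyceride synthesis, had 45, 66 and 43 counts without CGRP and 240, 154 and 135 with it (log2 fold change 2.06, SE 0.21, adjusted p = 8.79e-06), *Lpin2*, a phosphatidate phosphatase, had 200, 176 and 174 counts without CGRP and 503, 419 and 275 with it (log2 fold change 1.39, SE 0.14, adjusted p = 9.16e-06), and *Abca1*, the cholesterol exporter, had 156, 126 and 182 counts without CGRP and 363, 488 and 385 with it (log2 fold change 1.73, SE 0.22, adjusted p = 7.52e-05). *Pparg*, which encodes the nuclear receptor PPARγ, had 245, 211 and 231 counts without CGRP and 59, 61 and 45 with it (log2 fold change −1.76, SE 0.19, adjusted p = 1.72e-05), and *Fabp4*, a fatty acid binding protein, fell from 728 ± 109 to 321 ± 56.1 CPM (log2 fold change −1.19, SE 0.15, adjusted p = 9.35e-05). *Lpl*, lipoprotein lipase, fell by 0.65 and *Plin2*, a lipid droplet protein, by 0.53, both lost without saline library 1 and *Plin2* also without CGRP library 2. *Cd36*, a fatty acid receptor, was not called (−0.18, adjusted p = 0.511). *Dgat1*, *Lpin2*, *Abca1*, *Pparg* and *Fabp4* were called in every fit that left out a library. Among 31 lipid handling genes tested, 8 rose (25.8%) and 4 fell. The number that rose was 3 without saline library 1, 4 without CGRP library 2 or CGRP library 3, and 5 without saline library 2 or with library size in place of TMM scaling. The number that fell was 2 without saline library 1. Of 25 genes of cholesterol synthesis, 3 fell and none rose (median −0.27), among them *Sqle*, squalene epoxidase, from 55.5 ± 6.78 to 27 ± 1.67 CPM (adjusted p = 0.0015), and *Sc5d* from 91.2 ± 9.84 to 46.1 ± 12.4 CPM (adjusted p = 0.00257), both in every such fit, and 5 members fell without saline library 3.

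All 5 genes called among 17 tested genes of eicosanoid metabolism and signalling were lower. *Hpgds*, a prostaglandin D synthase, had 797, 925 and 628 counts without CGRP and 497, 345 and 203 with it (log2 fold change −0.92, SE 0.16, adjusted p = 0.00149), and *Pla2g4a*, the phospholipase that releases arachidonic acid, had 47, 47 and 44 counts without CGRP and 17, 13 and 11 with it (log2 fold change −1.43, SE 0.29, adjusted p = 0.00544). *Pla2g15* fell by 0.66 (adjusted p = 0.00471) and *Hpgd*, which inactivates prostaglandins, by 1.04 (adjusted p = 0.00707). *Ptger4*, a receptor of prostaglandin E2 that also couples to Gs, had 25, 19 and 20 counts without CGRP and 3, 3 and 3 with it (log2 fold change −2.33, SE 0.47, adjusted p = 0.00492). It overlaps *Ttc33* on the opposite strand, which had more counts (648 over the 6 libraries against 73) and a log2 fold change of 0.00. The call of *Ptger4* was lost without CGRP library 2 and that of *Hpgd* without saline library 1. Between 4 and 5 members of the list were lower in each fit that left out a library.

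Energy metabolism and protein turnover showed few calls. Of 75 genes of the respiratory complexes 1 rose, none of 37 proteasome genes was called (3 log2 fold changes above 0, median −0.10), and of 25 glycolysis genes 1 rose and 1 fell. The glycolysis gene that rose was *Slc16a3*, the lactate exporter MCT4, with 133, 108 and 94 counts without CGRP and 361, 440 and 337 with it (log2 fold change 2.06, SE 0.18, adjusted p = 1.97e-06), and the gene that fell was *Pdk1*, a kinase that holds back pyruvate oxidation, from 47.7 ± 9.05 to 20.2 ± 4.52 CPM (adjusted p = 0.00231). *Hif1a*, a transcription factor of the response to low oxygen, rose from 49.3 ± 4.12 to 114 ± 14.2 CPM (adjusted p = 8.39e-05). *Ddit4*, an inhibitor of mTORC1, had 2, 6 and 1 counts without CGRP and 33, 16 and 13 with it (log2 fold change 3.10, SE 0.55, adjusted p = 0.00188), and *Slc7a11*, the cystine importer, rose by 1.17 (adjusted p = 0.0053). With *Got1* these were the 3 genes called among 21 tested genes of amino acid supply or targets of the amino acid stress factor ATF4. The median of this group was 0.02. Of 62 lysosomal genes tested, 3 fell, *Atp6v0a1* and *Atp6v1b2* of the proton pump, with 815, 633 and 647 counts without CGRP and 213, 250 and 188 with it (log2 fold change −1.39, SE 0.16, adjusted p = 2.83e-05) and 2175, 1895 and 1512 counts without CGRP and 896, 760 and 564 with it (log2 fold change −1.03, SE 0.12, adjusted p = 3.97e-05), and *Mitf*, a transcription factor of lysosomal genes (−1.22, adjusted p = 0.00153), while *Ctsl* rose (0.57, lost without saline library 1 or CGRP library 2) and the median of the group was 0.12. The 3 falls were called in every fit that left out a library. The number of lysosomal genes that rose was 3 without saline library 3, 5 without CGRP library 1 and 15, with 6 lowered, without both. Without both libraries 7 genes of the respiratory complexes and 5 of the proteasome were lowered, the call among the respiratory genes was held only without saline library 3 or CGRP library 1, and without CGRP library 1 alone 3 glycolysis genes rose.

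Transcription factors of the myeloid lineage were called in both directions. Of 49 transcription factor genes tested, 8 rose (16.3%) and 5 fell (10.2%). Without saline library 2, 7 rose and 8 fell. *Ets2* rose from 17 ± 1.16 to 51.7 ± 4.6 CPM (adjusted p = 3.31e-05), and *Hdac5*, a histone deacetylase, and *Id3* rose by 0.95 and 1.06. *Id2*, a relative of *Id3*, fell by 0.81 (adjusted p = 0.00123) and *Klf6* by 0.63 (adjusted p = 0.0053). *Bhlhe41*, a repressor of the circadian clock, had 32, 38 and 62 counts without CGRP and 8, 9 and 5 with it (−2.14, adjusted p = 0.00834), a call lost without CGRP library 2. Of 111 solute carrier genes tested, 5 rose and 5 fell, close to the background. The number that rose ran from 3 without saline library 1 or 2 to 8 without saline library 3, and was 16 without both libraries that stand apart, and the number that fell was 1 without saline library 1 or CGRP library 2. The raised genes included *Slc15a3*, a lysosomal peptide transporter, with 1348, 850 and 1038 counts without CGRP and 2184, 2339 and 1707 with it (log2 fold change 1.26, SE 0.16, adjusted p = 8.39e-05).

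Of 28 matrix and proteolysis genes 3 rose and 3 fell. The number that rose was 6 without saline library 3, 8 without CGRP library 1 and 11 without both, and the number that fell was 1 without saline library 1, CGRP library 2 or CGRP library 3. Of these genes, *Adam8*, a membrane metalloproteinase, rose from 252 ± 39.1 to 425 ± 24.4 CPM (adjusted p = 0.00238), while *Mmp12* and *Mmp13* were lower in calls that most fits without 1 library lost. Of 13 growth factor genes 3 rose and 3 fell, *Gdf15*, *Igf1* and *Metrnl* being the lowered ones, with log2 fold changes of −1.36, −0.51 and −0.52 and calls held in 2 to 3 such fits. *Hmox1*, the heme-degrading enzyme, fell from 152 ± 5.56 to 99 ± 8.35 CPM (adjusted p = 0.00852), and it was 1 of 2 lowered genes among 35 of antioxidant defence and iron handling, of which 1 rose. *Rgs18*, a regulator of G protein signalling, had 98, 89 and 96 counts without CGRP and 60, 27 and 25 with it (log2 fold change −1.10, adjusted p = 0.0116, lost without CGRP library 2), opposite in direction to *Rgs2*, and these were the 2 calls among 7 genes of that family. Of 21 scavenger receptor and lectin genes 1 rose and 2 fell. Among 14 genes of the hypoxia response 3 rose and 1 fell, and among 14 clock genes 2 rose and 1 fell. Of 26 ER stress genes 1 rose, of 75 mitochondrial ribosome genes 1 fell (2 without CGRP library 1, 15 without both libraries that stand apart and 0 without any of the other libraries but saline library 3), of 14 heat shock genes 1 fell, and none of 11 genes of fatty acid synthesis or of 6 mitochondrially encoded RNAs was called. The markers of monocyte state had 1 raised and 1 lowered member of 16, and those of alternative activation 2 raised and 3 lowered members of 15. Of these groups, the ER stress call was held only without saline library 3, the heat shock call was lost without saline library 1, CGRP library 2 or CGRP library 3, and 3 antioxidant genes rose without saline library 2 and 2 monocyte state genes without saline library 2 or CGRP library 1. No antioxidant gene rose without saline library 1, CGRP library 2 or CGRP library 3, and the rise among monocyte state genes was also lost in some fits that left out a library. The fall among the hypoxia genes was lost without CGRP library 1 or CGRP library 3, and 1 clock gene rose without saline library 1, saline library 2, CGRP library 2 or CGRP library 3. Without saline library 1 or CGRP library 2, no scavenger receptor or lectin gene was called, and 1 raised and 2 lowered genes of alternative activation were.

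**Figure D4:**
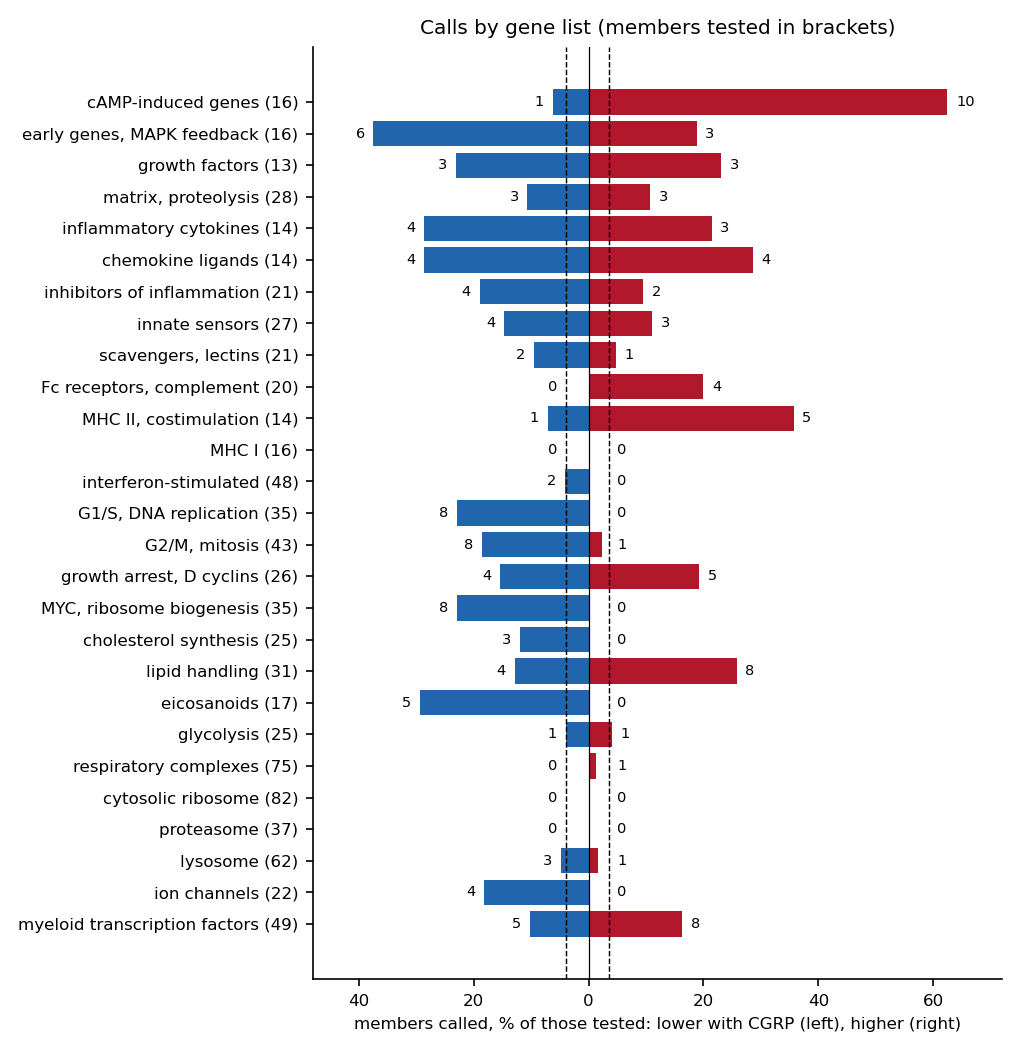
Bars give the share of tested members called lower (blue, left) or higher (red, right) with CGRP in 27 gene groups, with the number of calls beside each bar, the number tested in brackets and dashed lines at the shares over all genes tested (3.97% and 3.46%). The bar of cAMP-induced genes reaches 62.5% to the right, and the cell cycle, ribosome assembly and eicosanoid groups have bars to the left only or nearly so.

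The same genes were then read in neutrophils given the same dose for the same time. Neutrophils were a different, freshly isolated cell type in another medium, so cell type and culture cannot be told apart. In neutrophils 248 of 9819 genes were called (2.53%), 1.51% higher and 1.02% lower. Of the 325 genes raised in macrophages, 300 were tested in neutrophils, where 60 were also raised and 1 was lowered, with a median log2 fold change of 0.23 (1.05 over the 325 in macrophages). Of the 373 lowered genes, 326 were tested, 18 were also lowered and 3 were raised, with a median of −0.10 (−1.04 in macrophages). Whether the response differed between the cell types was put to an interaction test, which 252 of 10694 genes passed (2.36%). Among the genes raised in macrophages, 110 had a rise that was significantly larger there than in neutrophils, and among the lowered 107 had a significantly deeper fall. These numbers start from genes chosen for their change in macrophages, which favours that direction. *Pkib* fell in both cell types (log2 fold change in neutrophils −1.42, adjusted p = 0.00343), as *Ramp3* (2.52, adjusted p = 3.27e-04) and *Nr4a2* (1.47, adjusted p = 2.79e-04) rose in both. *Crem* rose by more in macrophages (log2 fold change larger by 2.88, interaction adjusted p = 1.29e-06 in limma-voom), and the same was true of *Il1b* (2.66, adjusted p = 1.26e-05). The fall of *Ccl2* (−2.10, adjusted p = 2.94e-05), *Jun* (−1.64, adjusted p = 9.72e-05) and *Ccna2* (−1.33, adjusted p = 0.00598) also differed between the cell types, whereas the difference did not pass for *Myc* (−1.33, adjusted p = 0.272), *Pparg* (−1.20, adjusted p = 0.26) or *Calcrl* (−1.09, adjusted p = 0.188). Not passing this test does not show that the effects were equal. *Tnip3*, an inhibitor of NF-κB, was lowered in macrophages (−0.91, a call lost without CGRP library 2 or CGRP library 3) and raised in neutrophils (0.90, interaction adjusted p = 0.0069).

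**Figure D5:**
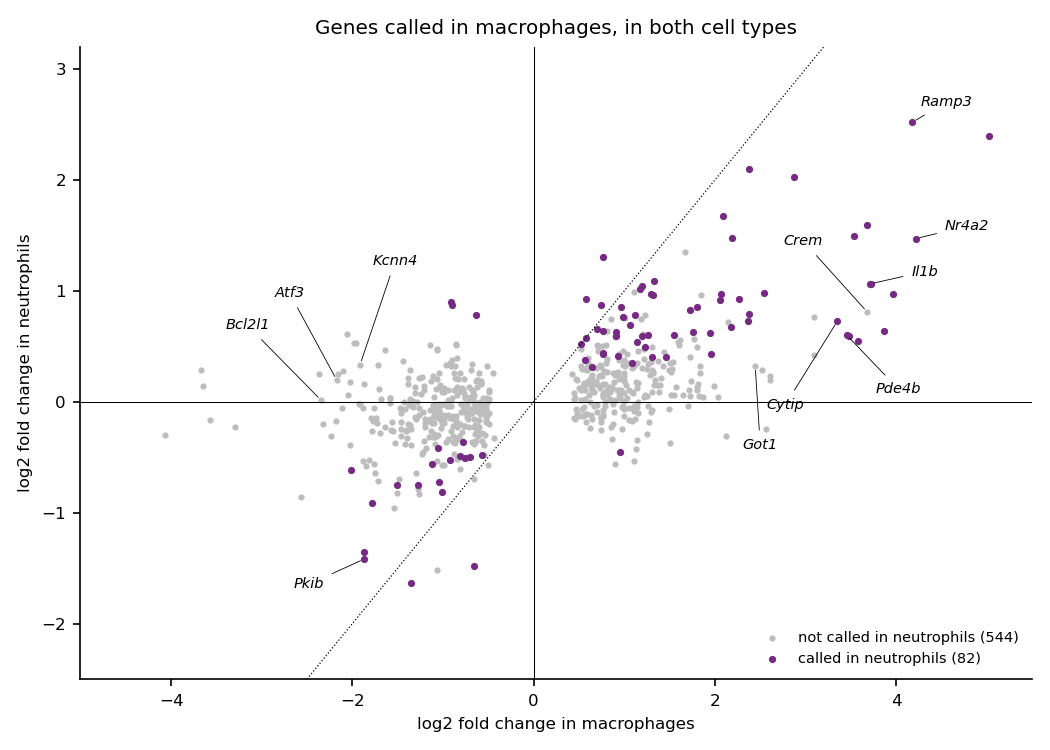
Log2 fold change (CGRP against saline) in neutrophils (y axis) against that in macrophages (x axis) for the macrophage DEGs tested in both cell types, in purple where also called in neutrophils (82 genes) and grey otherwise (544), with a dotted line where both are equal. Most points lie nearer to 0 on the neutrophil axis, which the choice of genes by their macrophage change favours.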

How the data were processed

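First-strand synthesis used a dT primer, so reads lie towards the 3′ end of transcripts, and molecules were tagged with unique molecular identifiers. The authors ran an nf-core pipeline with its identifier option, STAR (GRCm38) for alignment and featureCounts for counting, and deposited raw counts for each gene in 1 table for each cell type. Versions of STAR and featureCounts and the strand setting are not given in the sources used here. Genes were kept with edgeR's filterByExpr, scaled by TMM and tested with limma-voom (two-sided, Benjamini–Hochberg adjustment over all genes tested, threshold 0.05) on the 6 macrophage libraries, and the interaction with cell type on all 12. CPM in the text is TMM-scaled, other than for detection limits. The comparison, the 54 gene lists and the rules for named genes were chosen with earlier results of these data known, and no set test was run. Named genes were those with the largest or most significant changes, up to 4 called members per list and direction, receptor genes, and the strongest interactions. Predicted genes, *Thbs1* and the migration, repair and efferocytosis genes that the comparison leaves out were counted and not described, while the receptor genes were. Shared sequence is the share of 31-base words of the last 500 bases found in another gene. Promoters came from RefSeq (GRCm38.p6). The alternatives comprised DESeq2, its size factors, edgeR's quasi-likelihood test, library size without TMM, other filters on low counts, quality weights, the replicate block, thinning, a 1.5-fold minimum and leaving out each library. The steps were tested on simulated data with a spread set in advance. Of 100 genes with a log2 fold change of 1 in either direction, limma-voom recovered 82 and the interaction test 42. At a log2 fold change of 2 they recovered 100 and 94 of 100. Software was R 4.3.3, limma 3.58.1, edgeR 4.0.16, DESeq2 1.42.0, Python 3.11.15, pandas 2.3.3 and matplotlib 3.10.9.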

Additional observations from a re-analysis of the deposited data

Results flagged for a closer look

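The effect of CGRP differed between macrophages and neutrophils for 252 genes (interaction of treatment and cell type in limma-voom, adjusted p under 0.05 over 10694 genes), of which 129 had the higher and 123 the lower log2 fold change in macrophages. The genes named here are the 5 with the smallest adjusted p in each direction, other than *Thbs1* and *Cd14*, which are counted and not described. Macrophages showed the stronger rise of *Pde4b* (difference in log2 fold change 2.86, adjusted p = 1.98e-08), *Cytip* (2.64, adjusted p = 4.07e-07) and *Got1* (2.13, adjusted p = 4.84e-07), whose log2 fold changes in neutrophils were 0.60, 0.73 and 0.32. In the lower direction, *Atf3* differed by −2.35 (adjusted p = 1.06e-05), *Bcl2l1* by −2.35 (adjusted p = 1.19e-05) and *Kcnn4* by −2.24 (adjusted p = 1.19e-05), and their log2 fold changes in neutrophils were 0.20, 0.01 and 0.33. *Mocos*, a molybdenum cofactor sulfurase, differed by −1.89 (adjusted p = 1.06e-05) and had 341, 282 and 226 counts without CGRP and 79, 73 and 33 with it in macrophages. *Apbb1ip*, the adaptor RIAM that links Rap1 to integrins, differed by −1.52 (adjusted p = 2.93e-05) and had 431, 320 and 342 counts without CGRP and 90, 98 and 81 with it.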

How the results depend on the processing

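The 698 calls were 735 with edgeR, 654 with DESeq2, 708 with DESeq2 size factors, 777 without a filter on low counts, 702 with at least 10 counts in at least 3 libraries, 529 after thinning to the smallest library and 630 with a minimum of 1.5-fold, and none of the 698 changed sign under these. With library size in place of TMM, 245 were higher and 405 lower of 650, so that the higher share fell from 46.6% to 37.7%. Quality weights gave 1406 (715 higher, 691 lower), and leaving out saline library 3 and CGRP library 1 together, chosen after seeing the data, gave 1600 (864 higher, 736 lower), where 2 libraries stood against 2. Leaving out each library gave 347 to 765 calls, 163 to 420 higher and 173 to 392 lower, and for the interaction 149 to 328 genes, 73 to 187 higher and 76 to 149 lower in macrophages. The lowest counts came without saline library 1 or CGRP library 2. The causes of these shifts were not tested. The sources do not say what the replicate numbers mark, and same-number libraries correlated at 0.06, −0.18 and 0.27 in their deviations from group means, so pairing was not shown. With the replicate block there were 915 calls (430 higher, 485 lower), 697 of them among the 698, and 295 interaction genes (148 higher, 147 lower). In the gene groups, 283 counts under alternatives moved by over 1.5 times and 1553 did not. Those that moved included G2/M, with 17 lowered genes under the block and 5 after thinning, against 8. Beyond leave-one-out fits, named genes that lost the call included *Cd4*, *Kcne3*, *Adora2b* and *Ccl5* with DESeq2, *Apoe* with edgeR, *Adora2b* and *Ccl5* without a filter, *Cd4*, *Ier2*, *Adora2b*, *Ccl5* and *Cd274* without TMM, *Dusp7* and *Fcgr3* without both libraries that stand apart, and *Cd4*, *Dusp7*, *Adora2b*, *Gins1*, *Ccnb2*, *Ccl5*, *Casp1*, *Tnfsf14*, *Cd274*, *Mmp13* and *Gdf15* after thinning. The 1.5-fold minimum removed *Apoe*, *Cfp*, *Ctsl*, *Entpd1*, *Fcgr3*, *Fcgr4*, *H2-Aa*, *Igf1*, *Metrnl*, *Mmp12* and *Plin2*, leaving 1 raised Fc receptor and complement gene, 3 raised class II genes, 0 raised lysosomal genes and 1 lowered growth factor gene. At these depths, falls to a few counts per library are imprecise.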

Other observations

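Cytokine receptors were examined in a list chosen after the values were seen, some of whose members also belong to groups above. Of 25 cytokine receptor genes, 23 were tested, 3 rose and 2 fell. *Csf2rb*, the shared signalling chain of the receptors for GM-CSF, IL-3 and IL-5, had 328, 320 and 392 counts without CGRP and 996, 1090 and 852 with it (log2 fold change 1.81, SE 0.17, adjusted p = 3.59e-06). Its close paralogue *Csf2rb2* had 118, 130 and 154 counts without CGRP and 345, 376 and 247 with it (log2 fold change 1.57, SE 0.18, adjusted p = 2.83e-05), and reads may be split between them. *Ifngr1*, a chain of the interferon-γ receptor, had 1072, 1102 and 945 counts without CGRP and 1954, 1657 and 1299 with it (log2 fold change 0.95, SE 0.12, adjusted p = 8.39e-05). *Il6st*, which encodes gp130, fell from 62.9 ± 9.67 to 33.9 ± 5.68 CPM (SD, n = 3, adjusted p = 0.00805 in limma-voom) and *Tnfrsf11a*, which encodes RANK, from 51.2 ± 9.91 to 29.2 ± 0.863 CPM (adjusted p = 0.0182). These calls were held in 4 and 3 of the 6 leave-one-out fits.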
